A study of Mus musculus with 3 samples.

Results

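The Krüppel-like factors described here are 10 mouse genes, Klf2, Klf3, Klf4, Klf5, Klf6, Klf7, Klf9, Klf10, Klf13 and Klf15. Every array probe that was not a control and carried one of these names was taken, which gave 19 probes of 56605. They covered 10 genes, of 36335 gene names among the probes left after spots marked as outliers were removed. Probes were taken by name and not by signal. Of the 10 genes, 4 had 1 probe and 6 had more, and probes of one gene are numbered below from the brightest. The study measured RNA of mpkDCT cells, an immortalised mouse kidney line named for the distal convoluted tubule. All cultures were of a Cyp27b1 knockout made by CRISPR-Cas9, and this gene codes for the enzyme that adds the activating hydroxyl group to vitamin D, so knockout cells separate the response to the active hormone from that to its precursor. One culture received 1,25(OH)2D3 (calcitriol, the active hormone) at 1e-07 M, one received 25(OH)D3 (calcidiol, the precursor that lacks the 1-alpha hydroxyl group) at 1e-07 M, and one received vehicle. All 3 cultures had spent 24 h in medium free of phenol red, with 2% serum stripped with charcoal, before 24 h of treatment in that medium.

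Each group was 1 culture on 1 array, so no value has a replicate, no test was made, and differences between cultures of the same treatment were not measured. All 3 groups carried the knockout, and the sources used here do not say whether the line was 1 clone or what the siCT tag shared by the 3 sample names stands for. The free-text description of the precursor sample names a second hydroxyl group, and its treatment label, 25(OH)D3, was followed. RNA came from whole cultures, so fewer expressing cells and less RNA per cell cannot be told apart.

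Krüppel-like factors are transcription factors that bind GC-rich and CACCC elements through a carboxy-terminal zinc-finger domain nearly shared by the family. They are commonly grouped by the partners bound by the rest of the protein. Klf3 recruits the corepressor CtBP, Klf9, Klf10 and Klf13 recruit the Sin3 corepressor complex, and Klf2, Klf4, Klf5, Klf6 and Klf7 mainly activate transcription through acetyltransferases such as p300. In the kidney the family is known for roles in podocytes, tubules and vessels, and Klf9 and Klf15 are direct targets of corticosteroid receptors in several tissues.

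The zinc-finger domain sets how well an array can tell members apart, and a pair of probes shows it. The first Klf5 probe and the first Klf13 probe both lie in the zinc-finger coding sequence, and capitals mark the letters that they share when aligned without gaps.
Klf5 probe 1: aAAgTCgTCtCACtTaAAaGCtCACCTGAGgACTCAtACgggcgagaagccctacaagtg
Klf13 probe 1: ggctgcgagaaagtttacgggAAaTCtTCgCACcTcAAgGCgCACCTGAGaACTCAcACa
They shared 29 of 40 aligned letters, the most among the 171 pairs of member probes, with a longest identical run of 8. The next pair shared 26 of 57 letters, so no member probe was close to a copy of another. All probes were 60 bases long. For member probes designed on RefSeq or Ensembl transcripts, the design transcript gave the same gene as the probe's name. The dimmer probes of Klf5, Klf9 and Klf13 were designed on other sequences and kept the array's own name. Their identity was therefore not checked in this way.

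The promoters of the members with the highest and lowest differences, Klf2 and Klf9, and of Klf6, which stood above vehicle with 1,25(OH)2D3 like Klf2, are shown as 250 bases before the RefSeq gene start on GRCm38.p6. Capitals mark the GC box GGGCGG and the CACCC element, read on both strands, which are the elements that the family itself binds.
Klf2, chr8:72318812-72319061, plus strand: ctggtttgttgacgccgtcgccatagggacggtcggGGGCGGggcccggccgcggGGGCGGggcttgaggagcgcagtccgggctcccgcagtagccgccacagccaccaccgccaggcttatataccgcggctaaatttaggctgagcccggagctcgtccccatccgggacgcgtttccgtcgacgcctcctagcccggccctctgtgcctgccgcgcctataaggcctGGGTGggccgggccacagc
Klf6, chr13:5861239-5861488, plus strand: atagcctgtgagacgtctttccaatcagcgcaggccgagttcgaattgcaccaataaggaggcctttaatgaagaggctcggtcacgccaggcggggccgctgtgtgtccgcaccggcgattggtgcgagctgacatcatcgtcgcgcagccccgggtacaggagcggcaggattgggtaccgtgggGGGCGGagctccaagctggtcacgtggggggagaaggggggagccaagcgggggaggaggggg
Klf9, chr19:23140976-23141225, plus strand: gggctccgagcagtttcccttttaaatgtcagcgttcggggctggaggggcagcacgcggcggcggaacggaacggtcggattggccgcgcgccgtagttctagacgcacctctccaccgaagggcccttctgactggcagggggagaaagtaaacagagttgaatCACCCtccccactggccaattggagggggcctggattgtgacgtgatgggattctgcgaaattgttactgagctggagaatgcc
The Klf2 window held 2 GC boxes and 1 CACCC element, the Klf6 window 1 GC box and no CACCC element, and the Klf9 window 1 CACCC element and no GC box. RefSeq promoter entries were matched for 8 of the 10 members, all but Klf5 and Klf10. GGGCGG stood in 7 of these 8 windows, against 32.7% of 32851 promoters of the same length, and CACCC in 6 of 8, against 52.0%. Member promoters were richer in G and C, with a median of 71.4% against 52.4% over all promoters, and no comparison with promoters of matched base composition was made. CCAAT stood in 4 of 8 windows against 33.8% of all promoters, and TATAAA in 0 of 8 against 12.4%. The vitamin D receptor half-site AGGTCA stood in 0 of 8 windows against 14.0%. All motifs were read on both strands, and no motif searched holds another.

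The values below are the scanner software's processed signals, which are background-corrected intensities. A probe is called detected where the software marked it well above background. Differences are in log2 after each array was centred on its 75th percentile, which was a signal of 249.6 with 1,25(OH)2D3, 265.5 with 25(OH)D3 and 246.7 with vehicle, so uncentred signals of the 25(OH)D3 array read slightly high. The technical error of a difference, from the errors deposited for each spot, was 0.20 to 0.21 for the detected member probes, apart from 0.43 for the dim second Klf5 probe. Between 49.7% and 51.0% of spots were detected on each array, and no spot was saturated. The treatments were seen in the targets of the vitamin D receptor. Cyp24a1, the catabolic enzyme of vitamin D, had signals of 5443 with 1,25(OH)2D3, 288 with 25(OH)D3 and 2.68 with vehicle, and S100g, a calcium-binding protein, had 200.5, 81.0 and 3.45 in the same order of cultures. Neither gene was detected with vehicle, so both folds are bounds, at least 403-fold and 20.1-fold higher for Cyp24a1 and at least 14.8-fold and 5.64-fold higher for S100g. A bound sets the bright array against the higher of the dim probe's own signal and the lowest detected signal on the dim array. The receptor itself, Vdr, differed from vehicle by -0.19 with 1,25(OH)2D3 and -0.28 with 25(OH)D3, and its partner Rxra by -0.10 and -0.39. The Cyp27b1 probe was detected on none of the arrays, which does not check the knockout.

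No member was 2-fold apart in any comparison at its brightest probe. Klf15 was not detected, which left 9 members to measure. Of these, 0 of 9 were at least 2-fold higher with 1,25(OH)2D3 than with vehicle and 0 of 9 at least 2-fold lower, where 1.00% and 1.57% of 16653 genes were. With 25(OH)D3, 0 of 9 were at least 2-fold higher or lower than with vehicle, where 0.859% and 0.144% of 16646 genes were. Between the hormones, 0 of 9 were at least 2-fold higher or lower with 1,25(OH)2D3 than with 25(OH)D3, where 0.467% and 1.37% of 16499 genes were. With background shares this low, a count of 0 among 9 genes does not set the family apart. At 1.5-fold, Klf2 was the only member higher with 1,25(OH)2D3, 1 of 9 against 3.57% of genes, and 0 of 9 were lower, against 5.86%. This Klf2 call (0.608, where 1.5-fold is 0.585) ended with an offset of 32 added to the signals (0.577), under quantile normalisation after a normexp correction of the background (0.365) and with centring on neighbouring spots (0.53). Klf9 was the only member lower with 25(OH)D3, 1 of 9 against 1.30% of genes, and 0 of 9 were higher, against 2.91%. The Klf9 call ended with normexp and quantile normalisation (-0.41) and with centring on neighbouring spots (-0.46). Between the hormones 0 of 9 passed 1.5-fold in either direction, against 2.29% of genes higher and 5.37% lower.

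**Figure D1:**
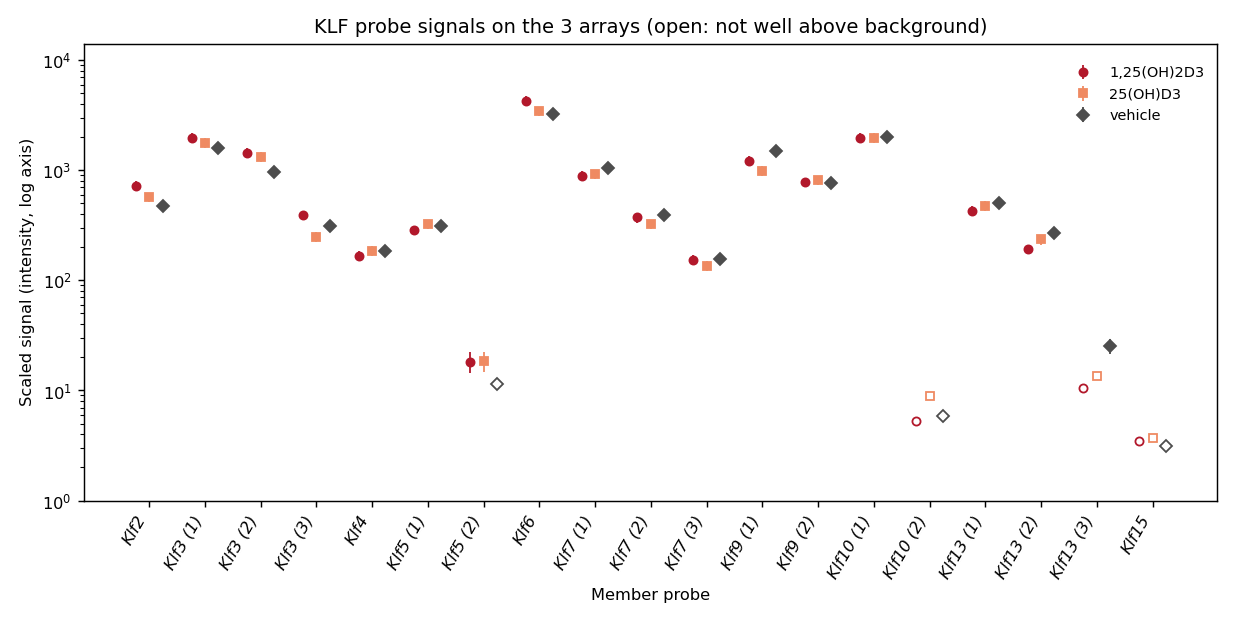
Signal of each member probe on the 3 arrays, scaled to the 75th percentile of the vehicle array and drawn on a log axis, with the deposited technical error as bars and open symbols where a probe was not detected. Numbers in brackets order the probes of a gene by brightness. Signals of different probes cannot be set against each other. Klf15 and the second Klf10 probe were open on all 3 arrays, and for most other probes the 3 arrays lay close together.

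Klf2 and Klf6, of the activating group, were both highest with 1,25(OH)2D3. Klf2, which shear stress and statins induce in endothelium, had signals of 728 with 1,25(OH)2D3, 610.3 with 25(OH)D3 and 472 with vehicle at its probe at chr8:74845137-74845196 (plus strand, mm9, the build of all probe positions). The 3 cultures were ordered 1,25(OH)2D3, 25(OH)D3, vehicle. Klf2 was 1.52-fold higher with 1,25(OH)2D3 than with vehicle, a log2 difference of 0.61 ± 0.20 (technical error), and 1.20-fold higher with 25(OH)D3 than with vehicle, 0.26 ± 0.20. The hormones differed by 0.34 ± 0.20, and this order was turned under another background correction with quantile normalisation, which gave 0.37 with 1,25(OH)2D3, 0.53 with 25(OH)D3 and -0.16 between them. The Klf2 spot stood in row 2 from the edge of the array. Detected spots within 8 rows and columns of it had a median of 0.08 for 1,25(OH)2D3 against vehicle and -0.17 for 25(OH)D3 against vehicle and 0.17 between the hormones. With these subtracted the Klf2 differences were 0.53 for 1,25(OH)2D3 against vehicle, 0.44 for 25(OH)D3 against vehicle and 0.18 between the hormones.

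Klf6, an early gene of tissue injury and growth arrest, had signals of 4339.9 with 1,25(OH)2D3, 3677 with 25(OH)D3 and 3271 with vehicle, at chr13:5869371-5869430. The 1,25(OH)2D3 culture stood above the other cultures, which lay close to each other. The differences were 0.39 ± 0.20 for 1,25(OH)2D3 against vehicle, a 1.31-fold higher signal, 0.06 ± 0.20 for 25(OH)D3 against vehicle, and 0.33 ± 0.20 for 1,25(OH)2D3 against 25(OH)D3. Other normalisations and background corrections gave 0.34 to 0.51 for the first of these. The spot lay in column 4 from the edge, with a median of 0.05 among the spots around it for 1,25(OH)2D3 against vehicle.

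The other activators were near or below their vehicle level with 1,25(OH)2D3. Klf4, a pluripotency factor that also marks differentiating epithelium, had signals of 170 with 1,25(OH)2D3, 200.0 with 25(OH)D3 and 186 with vehicle at chr4:55540833-55540892 (minus strand). These values differed by less than the technical error, with -0.15 for 1,25(OH)2D3 against vehicle and -0.00 for 25(OH)D3 against vehicle. Klf5, which promotes epithelial proliferation, had signals of 288 with 1,25(OH)2D3, 347 with 25(OH)D3 and 312 with vehicle at its first probe, printed above, whose positions span chr14:99702656-99712388 and so cross an intron. Here too the differences were within the error, -0.13 and 0.05 against vehicle and -0.18 between the hormones. The second Klf5 probe, at chr14:99704137-99704196, was dim, with 18.5 with 1,25(OH)2D3, 20.0 with 25(OH)D3 and 11.4 with vehicle. It was not detected with vehicle, which bounds it at least 1.37-fold higher with 1,25(OH)2D3 and at least 1.39-fold higher with 25(OH)D3, while the first probe did not differ beyond its error.

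Klf7, a regulator of neuronal and adipocyte differentiation, was lower than vehicle with 25(OH)D3 at all 3 of its probes, and with 1,25(OH)2D3 by more than the technical error at the first probe alone. The first, at chr1:64082265-64082324 (minus strand, as for the other probes of the gene), had signals of 896 with 1,25(OH)2D3, 991 with 25(OH)D3 and 1047 with vehicle, differences of -0.24 and -0.19 from vehicle. The second, at chr1:64080138-64080197, had 377, 348 and 391 in the same order of cultures, and the third, at chr1:64167512-64167571, had 155, 145 and 156. For 25(OH)D3 the probes gave -0.19, -0.28 and -0.21, all 3 of about the size of their technical error. For 1,25(OH)2D3 they gave -0.24, -0.07 and -0.03, of which the second turned positive under median centring, with 0.04. The third turned positive under 5 of 8 alternatives, with up to 0.09, so it has no fixed sign.

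Klf3, the CtBP-dependent repressor of erythroid and adipocyte genes, was higher than vehicle with 1,25(OH)2D3 at all 3 probes but split with 25(OH)D3. The first probe, at chr5:65221309-65221368, had signals of 1995 with 1,25(OH)2D3, 1917 with 25(OH)D3 and 1583 with vehicle. The second, at chr5:65223991-65224050, had 1459.6 with 1,25(OH)2D3, 1417 with 25(OH)D3 and 972 with vehicle. At both, the hormone cultures lay close together and above vehicle, by 0.32 and 0.57 with 1,25(OH)2D3 and by 0.17 and 0.44 with 25(OH)D3. The 0.17 of the first probe was within its technical error of 0.20. The second probe thus stood 1.48-fold and 1.35-fold above vehicle, more than 2 technical errors in both comparisons.

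The third Klf3 probe reads coding sequence upstream of the zinc fingers and crosses an intron, over chr5:65213568-65214148, and is printed because it departed from the others.
Klf3 probe 3: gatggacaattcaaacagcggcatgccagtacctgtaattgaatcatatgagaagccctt
Its signals were 395 with 1,25(OH)2D3, 269 with 25(OH)D3 and 308 with vehicle. With 1,25(OH)2D3 it was 0.34 above vehicle, as at the first probe, but with 25(OH)D3 it was -0.31 from vehicle. The hormones therefore differed by 0.64 ± 0.21 here, 1.56-fold higher with 1,25(OH)2D3, against 0.15 and 0.13 at the first and second probes. For 25(OH)D3 against vehicle, the first probe stood 0.48 and the second 0.74 above the third, whose start lies 7741 and 10423 bases before theirs. Which transcripts each probe reads was not measured.

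**Figure D2:**
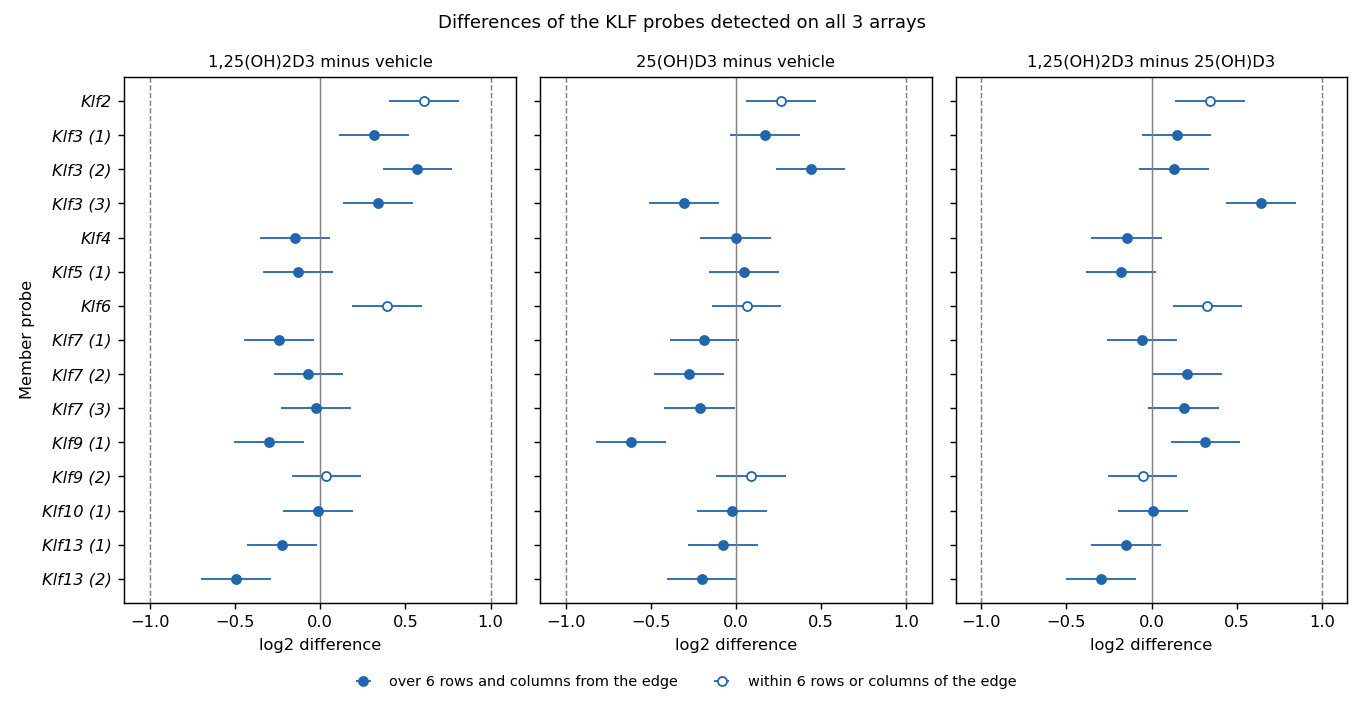
Log2 difference of member probes detected on all 3 arrays, with the technical error as bars and dashed lines at 2-fold. The comparisons are 1,25(OH)2D3 against vehicle, 25(OH)D3 against vehicle and 1,25(OH)2D3 against 25(OH)D3. No point drawn lies beyond the dashed lines, and probes of Klf3 and Klf9 lie on both sides of 0 for 25(OH)D3 against vehicle. The dimmest Klf13 probe and the dimmer Klf5 probe were not detected on all 3 arrays and are drawn in no comparison. For this Klf13 probe the plain log2 ratio, near background, was -1.26 with 1,25(OH)2D3, past 2-fold, and -0.91 with 25(OH)D3.

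Klf9, Klf10 and Klf13, of the Sin3-binding group, were level with vehicle or below it at their brightest probes. Klf9, a glucocorticoid- and thyroid hormone-responsive factor, had signals of 1239 with 1,25(OH)2D3, 1059 with 25(OH)D3 and 1508 with vehicle at its first probe, chr19:23240410-23240469. Both hormone cultures were below vehicle, by -0.30 ± 0.20 with 1,25(OH)2D3 and by -0.62 ± 0.20 with 25(OH)D3, the second a 1.53-fold lower signal. Over the alternatives the second value ran from -0.70 to -0.41. Spots around this probe had medians of 0.15 for 1,25(OH)2D3 against vehicle, -0.16 for 25(OH)D3 against vehicle and 0.33 between the hormones. With these subtracted the 2 differences from vehicle became -0.45 and -0.46, and the difference between the hormones became -0.02 in place of 0.32.

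The second Klf9 probe, 1914 bases downstream at chr19:23242324-23242383, did not show the lower level. It had signals of 788 with 1,25(OH)2D3, 869 with 25(OH)D3 and 759.6 with vehicle, differences of 0.04 and 0.09 from vehicle and -0.05 between the hormones. This spot lay in the outermost column of the array. For 25(OH)D3 against vehicle the first probe stood 0.70 below the second, with -0.62 and 0.09, so the Klf9 difference rests on 1 of its 2 probes.

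Klf10, first known as an early gene induced by TGF-beta, was the steadiest member. Its first probe, at chr15:38224255-38224314 (minus strand), had signals of 1999 with 1,25(OH)2D3, 2114 with 25(OH)D3 and 1996 with vehicle. After centring the cultures differed by -0.01, -0.02 and 0.01 for 1,25(OH)2D3 against vehicle, 25(OH)D3 against vehicle and 1,25(OH)2D3 against 25(OH)D3. The second probe, designed on transcript variant 2, had 5.30, 9.49 and 5.84 in the same order of cultures and was detected in none.

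Klf13, a regulator of the chemokine Ccl5 in T cells and of cardiac genes, was lower with 1,25(OH)2D3 than with vehicle at all 3 probes. The first, printed above, at chr7:71082854-71082913 (minus strand), had signals of 433 with 1,25(OH)2D3, 511 with 25(OH)D3 and 500.1 with vehicle. The 1,25(OH)2D3 culture was the lowest, by -0.22 ± 0.20 from vehicle, while 25(OH)D3 was -0.07 from vehicle. The second, at chr7:71032482-71032541, had 194 with 1,25(OH)2D3, 253 with 25(OH)D3 and 270.2 with vehicle, differences of -0.50 ± 0.21 and -0.20 ± 0.21 from vehicle. Its positions run on the plus strand, opposite to the other Klf13 probes and 50372 bases from the first, so whether it reads Klf13 RNA or a transcript antisense to it was not measured. The third crosses an intron, over chr7:71036675-71069606, and had 10.72 with 1,25(OH)2D3, 14.6 with 25(OH)D3 and 25.4 with vehicle. It was detected with vehicle alone, which bounds it at least 1.86-fold lower with 1,25(OH)2D3 and at least 1.53-fold lower with 25(OH)D3, at signals close to the lowest that counted as detected. Its plain log2 ratios were -1.26 and -0.91.

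Klf15, a regulator of amino acid and glucose metabolism that corticosteroids induce, had signals of 3.53 with 1,25(OH)2D3, 3.95 with 25(OH)D3 and 3.16 with vehicle at chr6:90424982-90425040. It was not well above background in any culture, so no fold was formed.

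Read over the family, the members showed no common direction. The median over the 9 brightest probes was -0.13 with 1,25(OH)2D3, -0.00 with 25(OH)D3 and 0.01 between the hormones, beside 0.01, -0.00 and 0.02 over all genes. The median absolute difference was 0.24 with 1,25(OH)2D3 against 0.18 over all genes, 0.07 with 25(OH)D3 against 0.13, and 0.15 between the hormones against 0.17. Between the 5th and 95th percentiles of all genes lay 8 of 9 members with 1,25(OH)2D3, where the range was -0.63 to 0.50, and Klf2 stood above it. With 25(OH)D3 8 of 9 lay between -0.38 and 0.44, and Klf9 stood below. Between the hormones all 9 lay between -0.61 and 0.45. Median centring moved the median of all genes to 0.13 for 1,25(OH)2D3 against vehicle and 0.22 between the hormones, so differences near these sizes have no fixed sign.

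**Figure D3:**
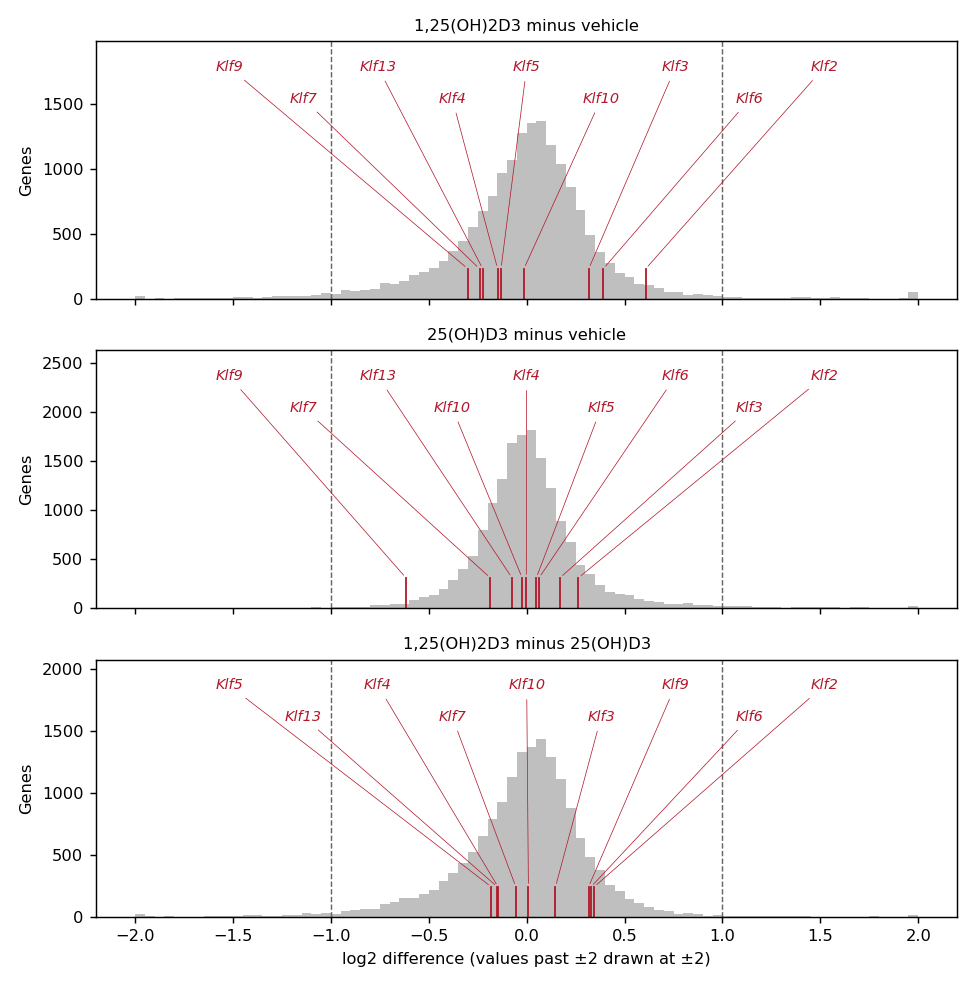
Distribution of log2 differences over all detected genes in the 3 comparisons, with the members at their brightest probe marked. Klf2 lies above the 95th percentile for 1,25(OH)2D3 against vehicle and Klf9 below the 5th percentile for 25(OH)D3 against vehicle, and the other members lie within.

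Differences past 2 technical errors were found for 3 of 15 member probes with 1,25(OH)2D3 against vehicle, Klf2 and the second Klf3 probe higher and the second Klf13 probe lower, where 15.6% of all probes were. Of the 9 genes at their brightest probe, Klf2 passed in the first comparison, Klf9 in the second and none in the third, where 15.6%, 7.09% and 13.2% of genes did. With 25(OH)D3 against vehicle 2 of 15 passed, the second Klf3 probe higher and the first Klf9 probe lower, where 7.06% of all probes did. Between the hormones 1 of 16 passed, the third Klf3 probe, where 13.1% of all probes did. These shares are close to the background for counts so small. The technical error was nearly the same for almost all member probes, so 2 technical errors acted much like a fixed cut in log2 difference. Spots printed repeatedly on each array, with signals of at least 100, gave a measured technical spread. Its median SD was 0.11, 0.09 and 0.12 for a single spot's difference in the same 3 comparisons, smaller than the technical error of 0.20 or more. Array position also moved with large differences. Within 6 rows or columns of the edge 5.61% of spots were 2-fold apart for 1,25(OH)2D3 against vehicle, 3.02% for 25(OH)D3 against vehicle and 5.67% between the hormones, against 2.08%, 0.688% and 1.26% inside. The 3 member probes in that border were those of Klf2 and Klf6 and the second of Klf9.

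**Figure D4:**
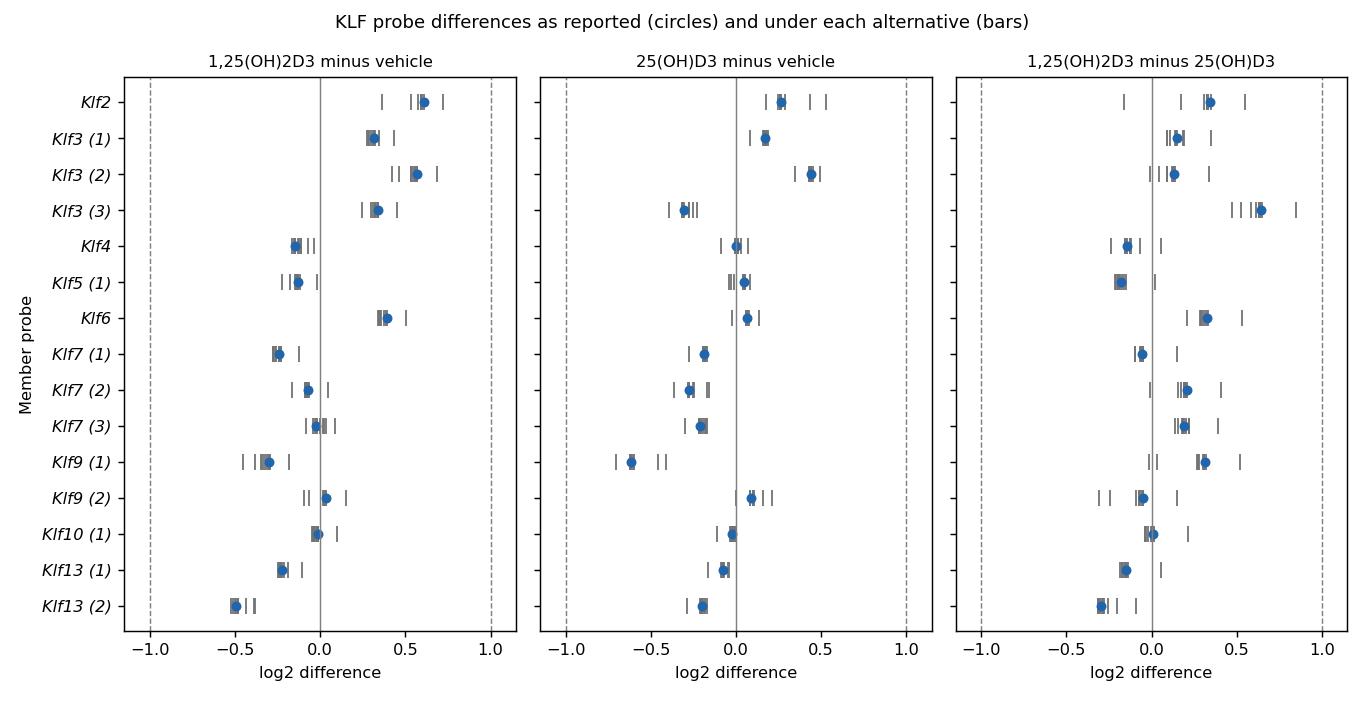
Log2 difference of member probes detected on all 3 arrays, in the 3 comparisons, with the reported value as a point. Each bar is the value under a single alternative normalisation, background correction or filter. Centring on neighbouring spots and the percentile over spots are included. Klf3, Klf6 and Klf2 stay above 0 for 1,25(OH)2D3 against vehicle and no bar drawn reaches 2-fold. The dimmest Klf13 probe and the dimmer Klf5 probe were not detected on all 3 arrays and are drawn in no comparison.

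The other Krüppel-like genes on the array were few and mostly dim. Of 7, Klf1, Klf11, Klf12 and Klf16 were detected and Klf8, Klf14 and Klf17 were not. None of the 4 was 2-fold apart at its brightest probe where both arrays detected it. Klf11, a Sin3-binding relative of Klf10, had signals of 40.1 with 1,25(OH)2D3, 27.0 with 25(OH)D3 and 24.6 with vehicle, so 1,25(OH)2D3 stood above both, by 0.69 from vehicle and 0.66 from 25(OH)D3. Klf12, a CtBP-binding relative of Klf3, had 289, 343 and 366 in the same order of cultures, with -0.36 and -0.20 from vehicle. Its other detected probes had a mean of -0.34 and -0.12. Klf16 had 985, 1025 and 989.8, within -0.06 to 0.03 in all comparisons. Klf1, the erythroid factor, had 15.9, 12.1 and 23.1, -0.56 ± 0.37 (technical error) with 1,25(OH)2D3 against vehicle, and was not detected with 25(OH)D3. This bounds Klf1 at least 1.39-fold lower with 25(OH)D3 than with vehicle.

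The Sp factors, which bind the same GC boxes through related zinc fingers, were level for the bright members. Of 9, 7 were detected. Sp1 had signals of 2433 with 1,25(OH)2D3, 2700.0 with 25(OH)D3 and 2546 with vehicle, with -0.08 and -0.02 from vehicle, and Sp3 had -0.05 and 0.05. Sp4 gave -0.22 and -0.16, Sp7 gave 0.09 and 0.16, and the brightest Sp2 probe -0.04 and 0.01, although the other Sp2 probe gave -0.82 and 0.44, and -1.26 between the hormones. Sp8, a factor of limb and neural patterning, was the only Sp gene at least 2-fold apart at its brightest probe where both arrays detected it, with 34.9 with 1,25(OH)2D3, 45.2 with 25(OH)D3 and 80.7 with vehicle. Both hormone cultures lay below vehicle, by -1.22 and -0.94. Sp6 had 14.0, 25.0 and 28.5 in the same order of cultures, was not detected with 1,25(OH)2D3, and was at least 2.06-fold lower there than with vehicle and at least 1.67-fold lower than with 25(OH)D3. Sp5 and Sp9 were detected in none.

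Partners and regulators of the family were detected throughout and had medians close to 0. Among 12 cofactors, which included Sin3a, Sin3b, Ctbp1, Ctbp2, histone deacetylases and p300, 0 were at least 2-fold apart in any comparison at their brightest probes. Over all genes 0.144% to 1.57% were, by comparison and direction. With shares this low, a count of 0 among so few genes does not set a list apart. The cofactor medians were 0.01, -0.02 and -0.00 for 1,25(OH)2D3 against vehicle, 25(OH)D3 against vehicle and 1,25(OH)2D3 against 25(OH)D3. The extremes were Fhl3, a LIM-domain partner, with -0.55 in the first and -0.98 in the third at dim signals, Hdac3 with 0.33 in the first and Sin3a with -0.31 in the second. Fhl3 was also the highest in the second, at 0.43, and Sin3b in the third, at 0.26. Probes of Sin3b differed, with 0.13 and -0.14 from vehicle at the brightest and -0.43 and -0.76 at the other detected probe. The 17 upstream genes covered the Erk5 and Mef2 route to Klf2, TGF-beta signalling to Klf10, the glucocorticoid receptor and ubiquitin ligases of Klf proteins. Of these, 0 were at least 2-fold apart at their brightest probes. Mef2c was the lowest against vehicle, with -0.37 and -0.31, and Smad7 the highest, with 0.29 and 0.21. Between the hormones Smad2 was the lowest at -0.16 and Mapk7, which encodes Erk5, the highest at 0.20.

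Of 22 genes reported elsewhere as targets of Krüppel-like factors, 16 were measured, and 2 were at least 2-fold lower with 1,25(OH)2D3 than with vehicle and 0 at least 2-fold higher, where 1.57% and 1.00% of all genes were. Cdkn1a, the cell cycle inhibitor p21 and a target of Klf4 and Klf6, had signals of 588 with 1,25(OH)2D3, 1182 with 25(OH)D3 and 1579 with vehicle. The 3 cultures were well separated, with -1.44 and -0.52 from vehicle and -0.92 between the hormones. Ccl5, the T-cell target of Klf13, had 115 with 1,25(OH)2D3, 221 with 25(OH)D3 and 279.7 with vehicle, with -1.30 and -0.45 from vehicle and -0.86 between the hormones. With 25(OH)D3 against vehicle and between the hormones, 0 of 16 were at least 2-fold apart. The medians of the 16 were -0.08, -0.02 and -0.13 in the 3 comparisons, and whether any Krüppel-like factor bound these genes was not measured.

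Glucocorticoid-responsive genes were listed because Klf9 and Klf15 belong to them. Of 9, 8 were measured, and Sgk1, a kinase that promotes sodium uptake, was the only one at least 2-fold apart. It had signals of 2337 with 1,25(OH)2D3, 3105 with 25(OH)D3 and 869 with vehicle, 1.41 and 1.73 above vehicle, at a spot on the outermost line of the array, where 1.00% and 0.859% of all genes were at least 2-fold higher. The median of the 8 was -0.33 with 1,25(OH)2D3, -0.21 with 25(OH)D3 and -0.05 between the hormones, beside 0.01, -0.00 and 0.02 over all genes. Of the 8, 5 and 6 lay below vehicle in the 2 comparisons with it. Klf9 is itself 1 of the 8 and was among these at its first probe, while its second probe gave 0.04 and 0.09.

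Cell type markers gave a mixed picture of the line. Of 8 epithelial markers Pax2, Pax8 and Cdh16 were detected and Epcam, Cdh1, Krt8, Krt18 and Krt19 were not. Of 10 distal convoluted tubule markers 5 were detected, Wnk1, Wnk4, Stk39, Kcnj10 and, dimly, Pvalb, while Slc12a3, the cotransporter that defines this segment, was not, nor were Trpm6, Calb1, Klhl3 and Slc8a1. Collecting duct markers were detected for 2 of 10 genes and proximal tubule and loop markers for 1 of 6. Of 7 fibroblast markers Col1a1 and Dcn were detected, both lowest with 1,25(OH)2D3, while Col1a2, Col3a1, Pdgfra, Pdgfrb and Lum were not. Dcn had signals of 32.4 with 1,25(OH)2D3, 89.6 with 25(OH)D3 and 163 with vehicle, and Col1a1 had 103, 152 and 243 in the same order of cultures. Summed signals of the lists are uncentred and include genes that were not detected. The summed signal of the epithelial list was 12747 with 1,25(OH)2D3, 14683 with 25(OH)D3 and 16925 with vehicle. Most of it was Cdh16, with 10867.5, 12705.1 and 15054.6 in the same order of cultures. Pax8 was level, with 0.03 and -0.04 from vehicle. The fibroblast list summed to 159, 272 and 428 in the same order. The endothelial list, where Kdr was detected and Pecam1, Cdh5, Tek and Emcn were not, summed to 81.8, 126 and 137. The immune list, with 4 of 5 detected, summed to 1836 with 1,25(OH)2D3, 2517 with 25(OH)D3 and 2047 with vehicle. Most of this was Csf1r, with 1349, 1916 and 1570 in the same order, at a spot near the edge of the array. The part of these shifts in the Krüppel-like values was not tested.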

How the data were processed

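Total RNA of 3 mpkDCT cultures was labelled with Cy3 and hybridised to 1-colour Agilent arrays, 1 array per group, on 1 slide in 1 scan, per the file headers. The deposited scanner files hold intensity values made by the authors with Agilent Feature Extraction, version 10.7.1.1 per the file headers and 9.5.1.1 per the submitters' processing notes. The processed signal is already background-corrected per the file headers. A deposited value table holds normalised intensities of the same arrays, whose log2 values have a median of 3.71 each. Their correlation with the log2 scanner signals was over 0.999, and the step between was not stated.

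Controls, and spots that the software had marked as outliers in signal or background, were removed, which left 55116 probes and removed 1489. Spots of a probe were averaged, and log2 signals were centred on each array's 75th percentile over probes that were not controls. Differences needed detection above background in both cultures, and detection in one of them gave a bound. The brightest probe stood for its gene. Normalisation alternatives were run in limma 3.58.1 under R 4.3.3, and the rest in Python 3.11.15. Centring on the 75th percentile and the 2-fold threshold were tested on simulated data, and the other steps were not. RefSeq or Ensembl accessions named 58.3% of the probes. The array's own names served for the rest, replaced by the current name where they were a synonym of 1 gene. With 1 array per group no p-value was made, sizes were read against a 2-fold threshold, and the number of arrays limits the precision. The named genes were all member probes, the other Krüppel-like, Sp and vitamin D control genes, and in other lists the genes at least 2-fold apart, or else the highest and lowest. Dcn and Col1a1 were so named. The members and lists were chosen with earlier results of these data known.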

Additional observations from a re-analysis of the deposited data

How the results depend on the processing

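No paired analysis was possible because each group has 1 array. For the same reason no array could be left out. Under 13 alternatives written in the design and the percentile over spots, chosen after seeing the data, no member reached 2-fold as a gene, although leaving out the outermost 6 rows and columns removed Klf2 and Klf6. Single probes were recomputed under 8 of the 13, or 7 for the 3 probes near the edge, and under 2 added settings (centring on neighbouring spots and the percentile over spots). None of the probes detected on both arrays reached 2-fold, and the largest size was 0.72 for 1,25(OH)2D3 against vehicle, 0.70 for 25(OH)D3 against vehicle and 0.85 between the hormones. At a 1.5-fold threshold 1 member counted as apart in each comparison with vehicle. A plain ratio for probes detected on 1 array of a pair, also added after seeing the data, put the third Klf13 probe at -1.26 and -0.91 against vehicle and the second Klf5 probe at 0.68 and 0.70. The sign was kept under each of those 8 or 7 alternatives for 11 of 15, 11 of 15 and 6 of 16 member probes. The median over member probes ran from -0.10 to 0.09, from -0.13 to -0.01 and from -0.02 to 0.27. Over all genes, 429, 167 and 303 were 2-fold apart in these 3 comparisons. These counts became 1571, 701 and 1264 at 1.5-fold, 113, 43 and 76 at 3-fold, 976, 681 and 850 with detection on 1 array enough, 243, 85 and 156 with an offset of 32, 197, 80 and 160 with normexp background correction followed by quantile normalisation, and 237, 83 and 168 without the dimmest 25% of genes. Median centring moved the share that was higher to 55.7%, 73.3% and 55.4%, against 38.9%, 85.6% and 25.4%. The cause of these changes was not tested. Signals near background limit the second Klf5 probe, the third Klf13 probe, Klf1, Klf11, Sp6, Sp8 and Fhl3.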
